A study of Danio rerio with 20 samples.

Results

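The chaperone genes described here are the cytosolic and endoplasmic reticulum (ER) chaperones of zebrafish muscle and their J-domain partners. They were chosen by name: every gene of the count table whose symbol begins with hsp or dnaj, with the heat shock factors HSF1 and HSF2 and the collagen chaperone SERPINH1, and without the mitochondrial HSPD1, HSPE1, HSPA9, DNAJA3, DNAJC15 and DNAJC19 and the proteoglycan HSPG2. Earlier results of these data were known when this naming rule was set. The rule gave 86 of the 32105 genes in the table. After the filter on low counts 79 of them could be tested, among 17025 genes tested in all. The other 7 were too low: HSPA4L had 183 counts over all 20 libraries, DNAJC16 (ENSDARG00000059699) 126, DNAJB13 84, DNAJC22 58, DNAJC5B 9, hspa12a.2 3 and hspa12a.1 2. Symbols are spelled as in the gene name table, and genes that share a symbol are told apart by their Ensembl identifier.

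RNA was sequenced from muscle of male zebrafish of strain AB JxTu in 4 groups of 5 libraries. The groups were 3-year-old fish from a swim tunnel (3y_swim), 3-year-old fish without it (3y_control), 1-year-old fish from the swim tunnel (1y_swim) and 1-year-old fish without it (1y_control). Neither the duration of swimming nor the muscle sampled is given in the sources used here, nor is it stated whether each library is 1 fish, and p-values therefore speak only of how far these libraries lie apart, which may in part be technical. Levels are given as CPM, counts scaled to library size with TMM factors, and a gene is called when its Benjamini-Hochberg adjusted p from edgeR's quasi-likelihood test, taken over all genes tested, is under 0.05.

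Chaperones bind proteins that are not yet folded or have lost their fold. Hsp70 takes up such clients from J-domain proteins (Hsp40), which also set off its ATP hydrolysis, and nucleotide exchange factors such as Hsp110 and HSPBP1 let it release them; Hsp90 acts later, on nearly folded clients. Small heat shock proteins hold unfolding proteins without using ATP, and in muscle several of them sit on the sarcomere. In the ER the Hsp70 HSPA5 and the Hsp90 HSP90B1 do the same work with J-domain partners of their own, and the heat shock factors control the transcription of many of these genes. DNAJC11, DNAJC28, dnajc30b and dnajc4 also meet the naming rule although their proteins are known from mitochondria.

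Library totals ran from 3.16e+07 to 4.89e+07 counts. All 19 matched skeletal muscle markers were detected, and their summed level was 183868 to 307633 CPM in 3y_swim, 178463 to 216302 CPM in 3y_control, 211490 to 335599 CPM in 1y_swim and 150635 to 205921 CPM in 1y_control. Summed epidermis markers stood at 2053 CPM in 3y_swim 1, 2620 CPM in 3y_swim 3 and 4713 CPM in 1y_control 5, against 122 to 513 CPM in the other libraries, and none of the 19 epidermis markers was at 0. Leukocyte markers summed to 292 to 430 CPM in 3y_swim, 217 to 357 CPM in 3y_control, 107 to 245 CPM in 1y_swim and 137 to 467 CPM in 1y_control, with none of 17 at 0. Exocrine pancreas markers summed to 29.4 to 196 CPM in 1y_swim and to at most 21.7 CPM elsewhere, with none of 12 at 0. Nerve and glia markers (none of 17 at 0) summed to 331 to 874 CPM and erythrocyte markers (none of 9 at 0) to 67.0 to 257 CPM over all libraries. The TMM factors of 1y_swim 2 and 1y_swim 3, 0.795 and 0.659, were the lowest of all. In such bulk samples fewer cells of a type and less RNA per cell cannot be told apart.

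A few genes carried most of the chaperone signal. Per kilobase of gene length, the highest mean over the 20 libraries was that of hspb6 (244 CPM per kilobase), a small heat shock protein abundant in muscle. HSPB1, the widely expressed Hsp27 that protects the cytoskeleton, followed at 236, then hspb9l at 181, hsp90aa1.1 at 127, HSPA8 (ENSDARG00000068992), the constitutive cytosolic Hsp70, at 110.4, and HSP90AB1, the constitutive cytosolic Hsp90, at 91.8 CPM per kilobase. Together these 6 genes made up 61.9% of the members' summed level per length. The other genes among the 10 highest were dnajc18, HSPB3, DNAJA2 (ENSDARG00000104066) and DNAJC1, between 41.2 and 54.0 CPM per kilobase. The chaperone genes took 0.266 ± 0.0304% of all counts in 3y_swim, 0.345 ± 0.0548% in 3y_control, 0.339 ± 0.0194% in 1y_swim and 0.374 ± 0.0859% in 1y_control (SD, n = 5 each). The share was lowest in 3y_swim.

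**Figure D1:**
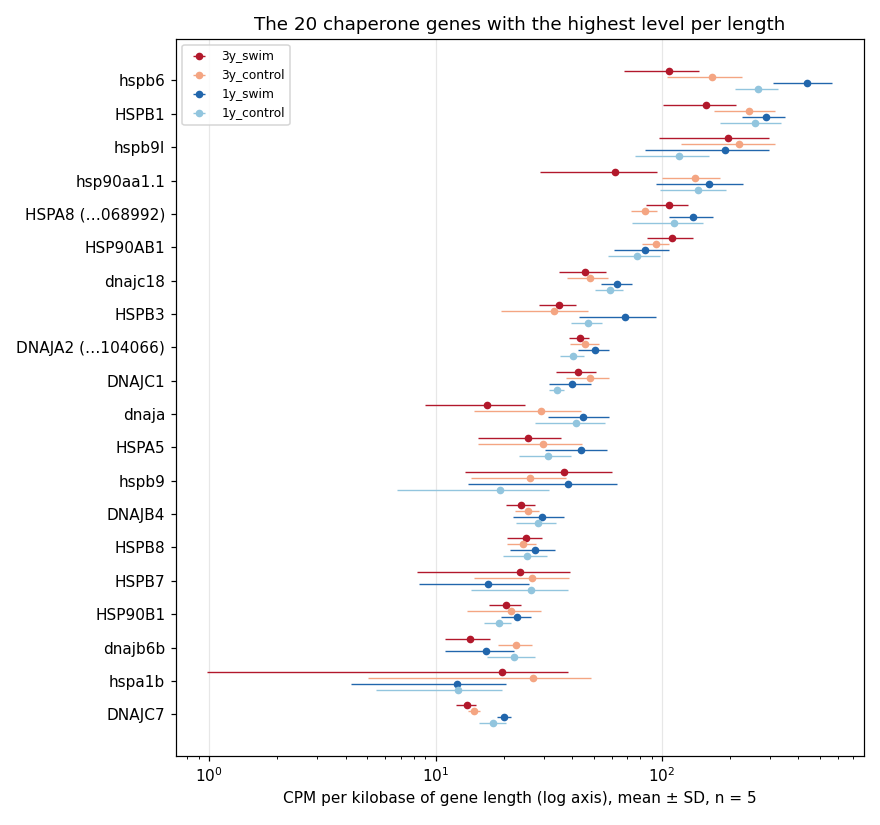
Level per kilobase of gene length (CPM per kilobase, log axis) of the 20 chaperone genes with the highest overall mean, as mean ± SD of 5 libraries for each of the 4 groups. hspb6 lies lowest in 3y_swim and highest in 1y_swim, and hsp90aa1.1 lies lowest in 3y_swim, while HSP90AB1 does not share that order.

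Most calls came from the contrast between 3-year-old and 1-year-old fish that had both swum. There 14 of the 79 chaperone genes were called, every one of them lower in 3y_swim: the small heat shock proteins hspb6, HSPB3 and HSPB1, the Hsp90 gene hsp90aa1.1, the Hsp110 gene HSPA4, the exchange factor HSPBP1, and 8 J-domain genes. Of these, HSPA4 and the J-domain genes DNAJB12, DNAJC5 and DNAJC11 each share their symbol with another tested gene, which was not called. Where no identifier is given, the called gene is meant. The called share was 17.7% among the members and 17.7% among all genes tested, so the number of calls does not set the chaperones apart. All genes tested were called lower in 10.1% and higher in 7.59%. The members' median log2 change was -0.29, beside 0.04 for all genes, and 60 of the 79 lay below 0 (47.4% of all genes tested did). Levels of 10 members did not overlap between 3y_swim and 1y_swim (12.7%, beside 12.9% of all genes tested). With library totals in place of TMM, which moved the median of all genes to 0.29, 10 members were called, 7 lower and 3 higher (DNAJB14, HSP90AB1 and HSPBAP1; 22.4% of all genes tested). The members' median with library totals is not given, so its sign may depend on the scaling. DESeq2 called 17, all lower (21.9% of all genes with an adjusted p), adding HSPA13, dnajc18 and hsp70.1. A fit of the 10 libraries compared alone called 11. Without the 3 libraries high in epidermis markers 6 members were called, 5 of them among the 14 (8.22% of all genes tested). Without the 2 libraries of lowest TMM factor 8 were called, 7 lower and 1, HSP90AB1, higher, with 6 among the 14 (11.4% of all genes tested). Those 6 were hspb6, DNAJC11, HSPBP1, DNAJC7, DNAJC5 and DNAJC2. Leaving out 1y_swim 2, 3y_swim 1 or 3y_swim 3 gave 10 calls each. For these fits and that of 10 libraries no share over all genes is given. Their counts therefore do not tell whether the chaperones differed from all genes. Summed leukocyte markers did not overlap between these groups, at 292 to 430 CPM in 3y_swim and 107 to 245 CPM in 1y_swim. Exocrine pancreas markers did not either, at 1.91 to 11.6 CPM in 3y_swim and 29.4 to 196 CPM in 1y_swim. The part that these markers, the epidermis markers and the TMM factors have in these changes was not tested.

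**Figure D2:**
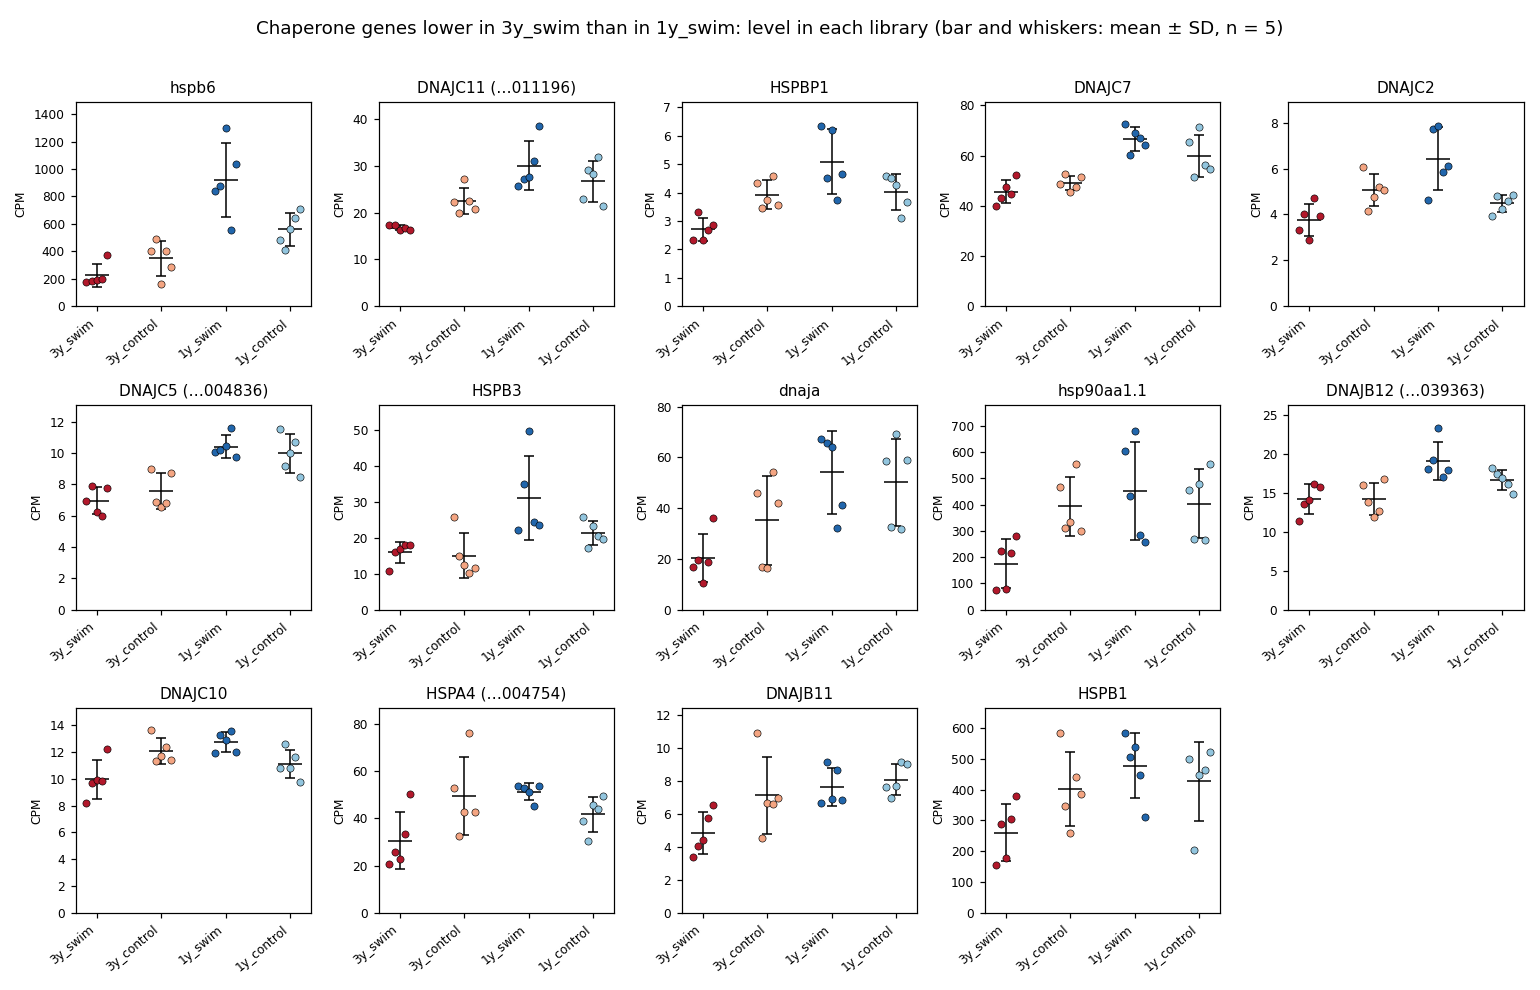
Level (CPM) in each library of the 14 chaperone genes called lower in 3y_swim than in 1y_swim, with the mean ± SD of each group of 5. In hspb6, DNAJC11, HSPBP1, DNAJC7, DNAJC5, HSPB3, DNAJB12 and DNAJB11 every 3y_swim point lies below every 1y_swim point.

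Among the small heat shock proteins hspb6 differed most. It stood at 179, 185, 193, 199 and 373 CPM in the 3y_swim libraries, against 840.0, 878, 1296, 558 and 1033 CPM in 1y_swim. At rest its levels were 404, 494, 164, 401 and 288 CPM in 3y_control, against 482, 410.0, 563, 646 and 711 CPM in 1y_control. Swimming libraries of the 2 ages thus did not overlap, while those at rest did. The log2 change was -2.03 ± 0.29 (SE) with swimming, a 4.08-fold lower level (adjusted p = 0.000251), and -0.68 ± 0.28 at rest, which was not called (adjusted p = 0.234).

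HSPB3, a small heat shock protein of muscle that assembles with HSPB2, was also separate between the swimming ages. In 3y_swim it had 10.8, 16.1, 16.9, 17.96 and 18.03 CPM, against 22.3, 35.2, 49.9, 24.5 and 23.6 CPM in 1y_swim. In 3y_control it had 25.7, 15.1, 12.4, 10.3 and 11.7 CPM, against 25.8, 17.1, 23.3, 20.6 and 19.6 CPM in 1y_control. The 2 ages did not overlap with swimming (log2 change -0.96 ± 0.25, adjusted p = 0.0133) and overlapped at rest through 3y_control 1. Without the 2 libraries of lowest TMM factor HSPB3 was no longer called with swimming. HSPB1 had 154, 287, 178, 305 and 378 CPM in 3y_swim, against 583, 507, 539.7, 448 and 313 CPM in 1y_swim. The 3y_swim libraries 1 and 3, which were high in epidermis markers, had its lowest levels, and the groups overlapped. The library highest in these markers, 1y_control 5, had the highest HSPB1 level of its own group. The log2 change of HSPB1 was -0.88 ± 0.28 (adjusted p = 0.0369). It was -0.53 and not called without the 3 libraries high in epidermis markers. HSPB8, which works with BAG3 in the removal of damaged muscle proteins, averaged 114 ± 20.0 CPM in 3y_swim, 110.05 ± 16.4 CPM in 3y_control, 125 ± 27.6 CPM in 1y_swim and 115 ± 25.5 CPM in 1y_control. Of the 10 small heat shock protein genes that met the naming rule and were tested, 3 fell, none rose and 7 were not called. Among all genes tested 10.1% were called lower and 7.59% higher.

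The 3 cytosolic Hsp90 genes gave different pictures. hsp90aa1.1 is the zebrafish Hsp90 that muscle needs to fold myosin and build its thick filaments. It stood at 73.5, 224, 77.8, 217 and 279 CPM in 3y_swim, against 604, 432, 678, 283 and 259 CPM in 1y_swim. In 3y_control it had 465, 312, 334, 554 and 297 CPM, against 455, 267, 476, 266 and 554 CPM in 1y_control. All 5 libraries of 3y_swim lay below all 5 of 3y_control, and they overlapped with 1y_swim. The age difference with swimming was -1.37 ± 0.37 on the log2 scale (adjusted p = 0.0162), and at rest the group means were 393 ± 112 CPM in 3y_control and 404 ± 130.4 CPM in 1y_control.

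The lowest 2 levels of hsp90aa1.1 were those of 3y_swim 1 and 3y_swim 3, which were high in epidermis markers. The library highest in these markers, 1y_control 5, had the highest hsp90aa1.1 level of its group. Without these 3 libraries the age difference with swimming was -0.87 and was not called. The constitutive HSP90AB1 had 396, 245, 394, 469.6 and 459 CPM in 3y_swim, against 235, 330.3, 423, 239 and 259 CPM in 1y_swim. The groups overlapped, and the log2 change of 0.40 ± 0.20 was not called (adjusted p = 0.186). HSP90AB1 was called higher, at 0.69, with library totals and also, at 0.69, without the 2 libraries of lowest TMM factor. HSP90AA1, a much lower gene, averaged 8.68 ± 1.89 CPM in 3y_swim and 8.59 ± 2.67 CPM in 1y_swim. Reads of hsp90aa1.1 and HSP90AA1 may be shared in part, since the copies are much alike, so the split between them is uncertain.

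Of the 13 Hsp70 and Hsp110 genes tested between the swimming ages, 1 was called, beside 17.7% of all genes tested. This was HSPA4 (ENSDARG00000004754), an Hsp110-type exchange factor. Its levels were 20.8, 25.8, 22.6, 33.2 and 50.3 CPM in 3y_swim, against 53.7, 52.8, 51.2, 45.4 and 53.8 CPM in 1y_swim. All but 3y_swim 5 lay below every 1y_swim library, and the log2 change was -0.75 ± 0.23 (adjusted p = 0.0311). This call was lost in 6 of the 20 fits that each left out 1 library, and without the 3 libraries high in epidermis markers the change was -0.47. The main constitutive gene, HSPA8 (ENSDARG00000068992), averaged 277 ± 58.9 CPM in 3y_swim, 217 ± 28.4 CPM in 3y_control, 353 ± 78.0 CPM in 1y_swim and 289 ± 100.2 CPM in 1y_control.

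Of the Hsp70 genes, hsp70.1, hsp70.3 and hsp70l were low. hsp70.1 had 0.334, 0.248, 0.117, 0.195 and 0.324 CPM in 3y_swim, against 0.792, 1.63, 0.781, 0.241 and 0.198 CPM in 1y_swim. Its log2 change of -1.54 ± 0.53 was not called (adjusted p = 0.0519), and the higher mean of 1y_swim came from libraries 1, 2 and 3. DESeq2 called it, as did edgeR without 1y_swim 4, 1y_swim 5, 3y_control 3 or 3y_control 4; over the 20 fits that each left out 1 library its change lay between -1.79 and -1.02. hsp70.3 averaged 0.547 ± 0.423 CPM in 3y_swim and 1.41 ± 0.967 CPM in 1y_swim, a log2 change of -1.35 ± 0.58 that was not called (adjusted p = 0.114). hsp70l averaged 0.711 ± 0.387 CPM in 3y_swim and 1.23 ± 0.798 CPM in 1y_swim. These near-identical copies can share reads, so their separate values are uncertain. The inducible Hsp70 gene hspa1b, outside the genes named by rule, stood higher and its mean went the other way. It averaged 19.6 ± 18.8 CPM per kilobase in 3y_swim and 12.4 ± 8.15 CPM per kilobase in 1y_swim, and was not called.

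The exchange factor HSPBP1, which opens the Hsp70 nucleotide pocket, was a low gene. It had 2.32, 3.33, 2.35, 2.67 and 2.86 CPM in 3y_swim, against 6.34, 4.51, 6.21, 3.75 and 4.65 CPM in 1y_swim. In 3y_control it had 4.33, 3.46, 3.73, 4.59 and 3.56 CPM, against 4.58, 4.52, 4.28, 3.12 and 3.67 CPM in 1y_control. Every 3y_swim library lay below every library of 3y_control and 1y_swim, and the 2 resting groups overlapped. The age difference with swimming was -0.91 ± 0.17 on the log2 scale (adjusted p = 0.00138). HSPBAP1, a protein that binds HSPB1, had log2 changes of 0.55 ± 0.27 with swimming and 0.55 ± 0.27 at rest, and was not called in either (adjusted p = 0.179 and 0.332).

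J-domain proteins gave 8 of the 14 calls, 3 of them among the 17 tested genes placed in or on the ER. The others were 1 of the 4 type A genes tested and 4 of the 19 type C genes. J-domain genes are also most of the members tested. Over all genes tested 17.7% were called, with 10.1% called lower and 7.59% called higher. All 8 J-domain calls were lower. Whether J-domain genes differ from all genes in this was not tested. The cytosolic type A gene dnaja had 16.7, 19.6, 10.3, 18.9 and 36.1 CPM in 3y_swim, against 67.3, 65.6, 64.2, 32.1 and 41.0 CPM in 1y_swim. Only 3y_swim 5 reached the 1y_swim range, and the log2 change was -1.41 ± 0.37 (adjusted p = 0.0139). At rest dnaja averaged 35.1 ± 17.4 CPM in 3y_control and 50.2 ± 17.1 CPM in 1y_control. Without the 3 libraries high in epidermis markers its change with swimming was -1.09 and was not called. None of the 7 type B genes tested was called. The heat-inducible dnajb1a averaged 3.48 ± 0.886 CPM in 3y_swim and 4.25 ± 0.400 CPM in 1y_swim, and dnajb1b 5.91 ± 1.59 CPM in 3y_swim and 5.80 ± 2.58 CPM in 1y_swim. DNAJB4 averaged 46.6 ± 6.72 CPM in 3y_swim, 49.8 ± 5.94 CPM in 3y_control, 57.4 ± 14.5 CPM in 1y_swim and 55.1 ± 10.9 CPM in 1y_control. DNAJB5 averaged 5.48 ± 1.79 CPM in 3y_swim, 4.97 ± 1.08 CPM in 3y_control, 4.22 ± 2.07 CPM in 1y_swim and 7.12 ± 1.84 CPM in 1y_control. The cytosolic type A gene dnaja1, also not called, averaged 6.85 ± 2.45 CPM in 3y_swim, 8.37 ± 3.14 CPM in 3y_control, 8.68 ± 2.54 CPM in 1y_swim and 11.5 ± 3.23 CPM in 1y_control.

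Of 19 type C genes tested 4 fell and none rose, beside 10.1% of all genes tested called lower and 7.59% higher. DNAJC7, a protein with tetratricopeptide repeats that links Hsp70 and Hsp90, had 40.1, 43.2, 47.5, 44.9 and 52.5 CPM in 3y_swim, against 72.4, 60.2, 69.1, 66.9 and 64.2 CPM in 1y_swim. In 3y_control it had 48.8, 52.6, 45.4, 47.5 and 51.5 CPM, against 65.3, 51.6, 71.5, 56.1 and 54.8 CPM in 1y_control. The ages were apart with swimming (log2 change -0.54 ± 0.11, adjusted p = 0.00235) and overlapped slightly at rest, where the change of -0.28 ± 0.11 was not called (adjusted p = 0.199). DNAJC2, the ribosome-bound partner of HSPA14, had 3.32, 4.02, 2.91, 4.70 and 3.91 CPM in 3y_swim, against 4.62, 7.73, 7.85, 5.83 and 6.13 CPM in 1y_swim. Its log2 change was -0.77 ± 0.16 (adjusted p = 0.00328), with 3y_swim 4 just above 1y_swim 1. At rest the means were 5.05 ± 0.700 CPM in 3y_control and 4.48 ± 0.387 CPM in 1y_control.

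DNAJC5 (ENSDARG00000004836), the cysteine string protein of secretory vesicles, had 6.91, 7.87, 6.22, 6.004 and 7.77 CPM in 3y_swim, against 10.1, 10.2, 10.4, 11.6 and 9.77 CPM in 1y_swim. At rest it had 8.97, 6.87, 6.57, 6.79 and 8.76 CPM in 3y_control, against 11.5, 9.17, 10.04, 10.7 and 8.45 CPM in 1y_control. The ages did not overlap with swimming and did so slightly at rest. The log2 change was -0.58 ± 0.12 with swimming (adjusted p = 0.00385) and -0.40 ± 0.12 at rest, which was not called (adjusted p = 0.126). With library totals the changes under swimming of DNAJC7 (-0.29) and DNAJC5 (-0.32) were not called. Nor were those of HSPB1, HSPA4, DNAJB11, DNAJB12 and DNAJC10. DNAJC11 (ENSDARG00000011196), known from the mitochondrial inner membrane organising system, had 17.4, 17.3, 16.2, 16.7 and 16.3 CPM in 3y_swim, against 25.6, 27.1, 27.5, 31.0 and 38.5 CPM in 1y_swim. In 3y_control it had 22.3, 19.9, 27.1, 22.4 and 20.8 CPM, against 23.0, 29.1, 28.3, 31.8 and 21.4 CPM in 1y_control. No 3y_swim library reached any library of the other 3 groups, and the log2 change from 1y_swim was -0.84 ± 0.13 (adjusted p = 0.000465).

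In the ER, HSPA5, the lumenal Hsp70 (BiP), had 45.4, 40.8, 42.1, 77.6 and 92.3 CPM in 3y_swim, against 87.0, 136, 137, 75.5 and 77.5 CPM in 1y_swim. The groups overlapped, and the log2 change of -0.78 ± 0.31 was not called (adjusted p = 0.0879). Its lumenal partner DNAJB11 had 3.40, 4.07, 4.40, 5.78 and 6.53 CPM in 3y_swim, against 6.67, 9.13, 6.90, 8.64 and 6.82 CPM in 1y_swim. These were just separate, and DNAJB11 fell by 0.66 ± 0.21 on the log2 scale (adjusted p = 0.0327). DNAJB12 (ENSDARG00000039363), a J protein of the ER membrane, had 11.3, 13.6, 14.1, 16.2 and 15.8 CPM in 3y_swim, against 18.1, 19.3, 23.3, 17.1 and 17.9 CPM in 1y_swim. DNAJC10, an ER disulfide reductase, had 8.20, 9.66, 9.92, 9.84 and 12.3 CPM in 3y_swim, against 11.96, 13.3, 12.9, 13.6 and 11.99 CPM in 1y_swim. DNAJB12 was separate between the ages, and DNAJC10 overlapped through 3y_swim 5. The other DNAJB12 gene (ENSDARG00000087473) averaged 2.87 ± 0.60 CPM per kilobase in 3y_swim and 2.88 ± 0.70 CPM per kilobase in 1y_swim.

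The changes of DNAJB12, -0.43 ± 0.12 (adjusted p = 0.0232), and of DNAJC10, -0.35 ± 0.11 (adjusted p = 0.0303), were the smallest called. Leaving out 1 library ended the call of DNAJB11 in 5 of 20 fits, of DNAJB12 in 3, of DNAJC10 in 6 and of HSPB1 in 5; besides these and HSPA4, the other 9 calls were kept in all 20. The libraries whose absence ended a call were 1y_swim 2, 1y_swim 4 and 3y_swim 1 to 3 for DNAJB11, 1y_swim 3, 3y_swim 1 and 3y_swim 3 for DNAJB12, 1y_swim 2, 1y_swim 4 and 3y_swim 1 to 4 for DNAJC10, 1y_swim 1, 2 and 5 and 3y_swim 1 to 3 for HSPA4, and 1y_swim 1 to 3, 3y_swim 1 and 3y_swim 3 for HSPB1. Without the 3 libraries high in epidermis markers HSPB3 (log2 change -0.79), DNAJC2 (-0.57), DNAJB11 (-0.45), DNAJB12 (-0.30) and DNAJC10 (-0.23) were no longer called either, and hspb6 (-1.83), DNAJC11 (-0.81), HSPBP1 (-0.75), DNAJC5 (-0.50) and DNAJC7 (-0.48) were. HSP90B1, the ER Hsp90, averaged 56.7 ± 9.06 CPM in 3y_swim, 59.4 ± 21.4 CPM in 3y_control, 63.3 ± 9.48 CPM in 1y_swim and 52.4 ± 7.04 CPM in 1y_control. The ER stress genes dnajc3a and both DNAJB9 copies were not called; dnajc3a averaged 3.72 ± 1.14 CPM in 3y_swim and 3.80 ± 0.777 CPM in 1y_swim. The DNAJB9 copies were low, DNAJB9 (ENSDARG00000016886) at 0.333 ± 0.154 CPM in 3y_swim and 0.436 ± 0.174 CPM in 1y_swim, and DNAJB9 (ENSDARG00000052072) at 0.396 ± 0.223 CPM in 3y_swim and 0.409 ± 0.192 CPM in 1y_swim. DNAJC25 averaged 2.11 ± 0.540 CPM in 3y_swim, 2.16 ± 0.300 CPM in 3y_control, 2.06 ± 0.590 CPM in 1y_swim and 2.76 ± 0.238 CPM in 1y_control. HSPA13, an ER-associated Hsp70 relative named after its values were seen, did not overlap between 3y_swim (0.890 to 2.86 CPM) and 1y_swim (2.99 to 4.19 CPM), and its change of -1.01 ± 0.36 was not called (adjusted p = 0.0572). It was called by DESeq2 and, at -1.64, without the 3 libraries high in epidermis markers.

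**Figure D3:**
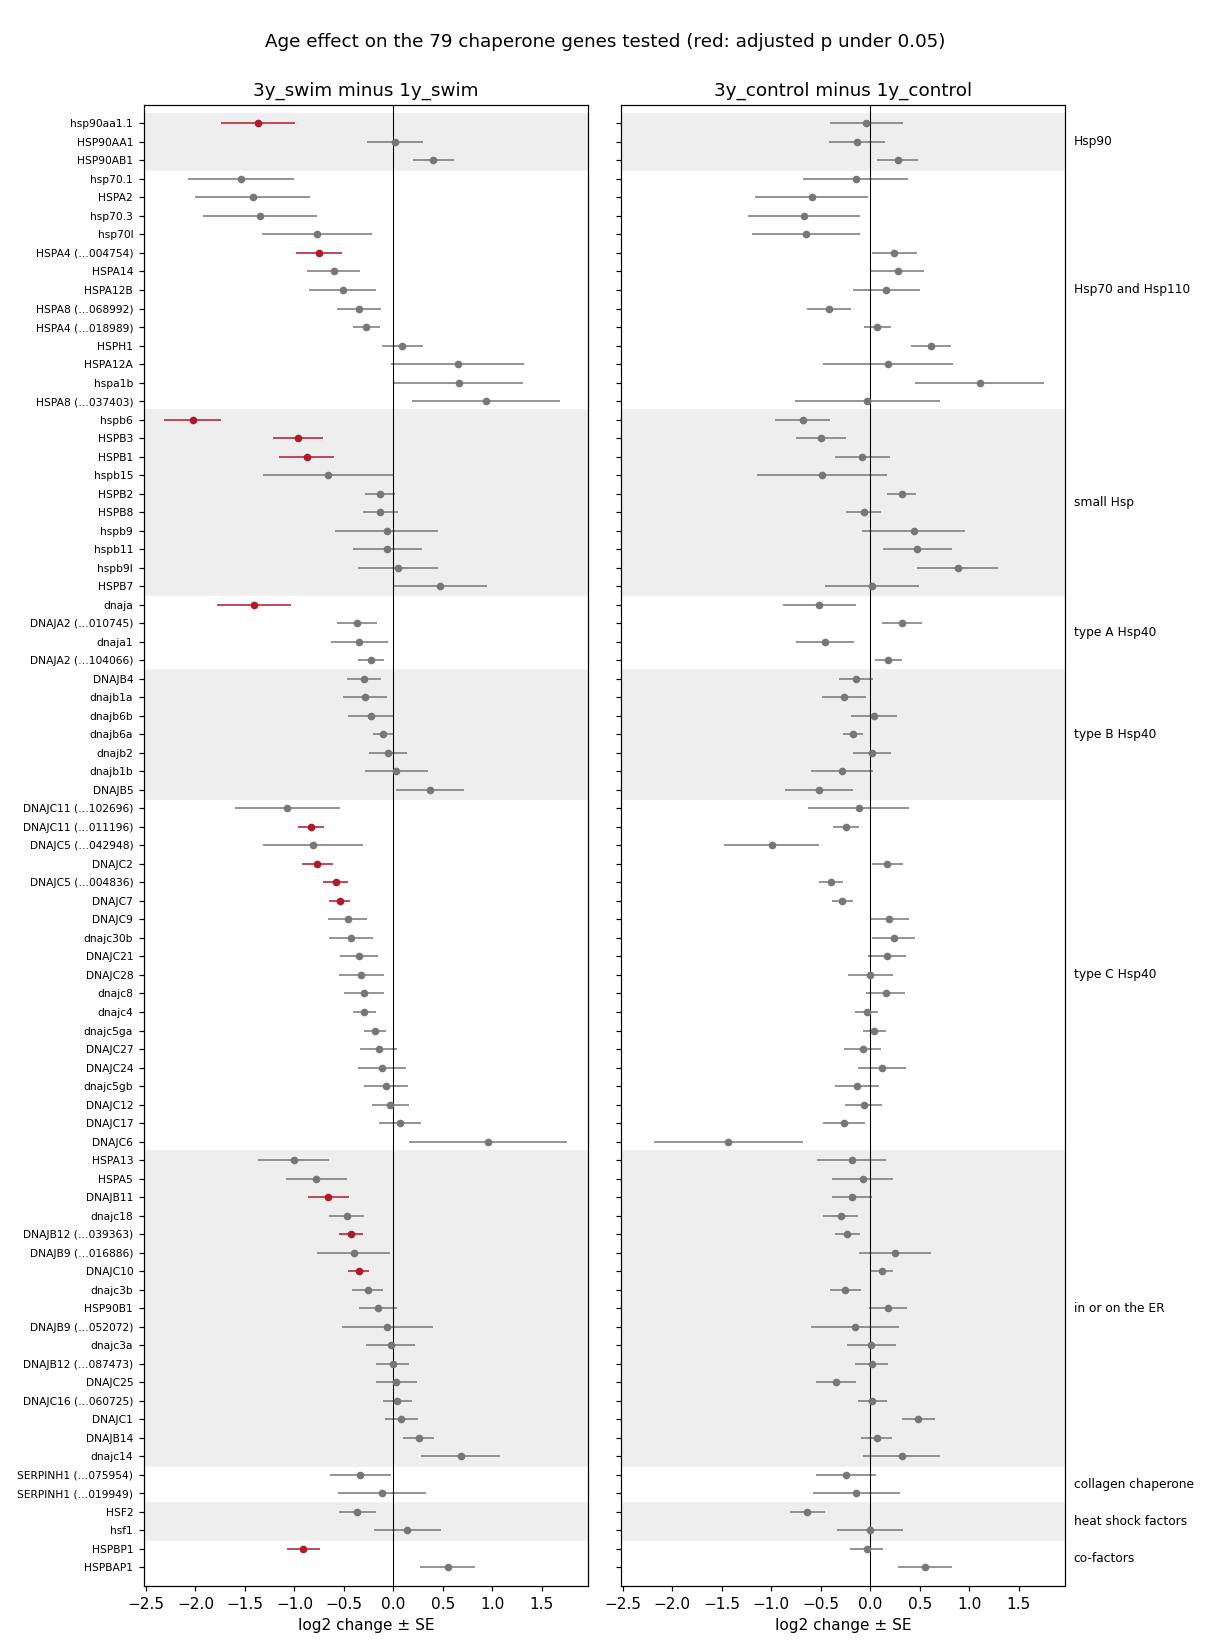
Log2 change with age ± SE of the 79 chaperone genes tested, by role, with swimming (3y_swim minus 1y_swim, left) and at rest (3y_control minus 1y_control, right), red where the adjusted p is under 0.05. On the left 14 genes are red and all lie below 0, and on the right none is red.

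At rest no chaperone gene was called between the ages, where 1.19% of all genes tested were. By edgeR's test 8 members had an unadjusted p under 0.05 (15.9% of all genes tested did), and DESeq2 called 2, HSF2 and DNAJC5 (4.24% of all genes with an adjusted p). Without 3y_control 1 edgeR called 1, HSF2, in a fit for which no share over all genes is given. The members' median log2 change was -0.04, beside 0.01 for all genes. HSF2, a heat shock factor also active outside stress, had 2.56, 2.38, 1.76, 1.67 and 1.56 CPM in 3y_control, against 2.88, 3.26, 2.78, 3.38 and 3.11 CPM in 1y_control. It was the one member with no overlap between the resting ages (1.27%, beside 4.14% of all genes tested), and its change was -0.64 ± 0.18 (adjusted p = 0.091). With swimming it had 1.38, 1.24, 2.20, 1.95 and 1.78 CPM in 3y_swim, against 1.94, 2.44, 2.59, 2.03 and 2.00 CPM in 1y_swim. All 5 libraries of 1y_control lay above the other 15. The stress-activated factor hsf1 averaged 4.82 ± 1.97 CPM in 3y_swim, 5.19 ± 1.46 CPM in 3y_control, 4.36 ± 2.13 CPM in 1y_swim and 5.21 ± 0.868 CPM in 1y_control.

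Some chaperones had a higher mean in resting old muscle without being called. HSPH1, an Hsp110, averaged 10.4 ± 2.52 CPM in 3y_control and 6.83 ± 0.845 CPM in 1y_control (log2 change 0.61 ± 0.20, adjusted p = 0.147). The ER gene DNAJC1 averaged 109 ± 23.4 CPM in 3y_control and 77.8 ± 6.19 CPM in 1y_control (0.48 ± 0.17, adjusted p = 0.164). The small heat shock gene hspb9l averaged 227 ± 101 CPM in 3y_control and 123 ± 44.4 CPM in 1y_control (0.88 ± 0.40, adjusted p = 0.297). In each of these 3 the resting ages overlapped. The inducible hspa1b, outside the genes named by rule, also had a higher mean, overlapped and was not called. It averaged 26.9 ± 21.9 CPM per kilobase in 3y_control and 12.5 ± 7.06 CPM per kilobase in 1y_control.

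Averaged over both exercise states, 11 members were called with age by edgeR with TMM, all lower (13.9%, beside 20.2% of all genes tested, which were lower in 10.7%). Of these, hspb6 (-1.36), DNAJC11 (-0.54), DNAJC5 (-0.49), DNAJC7 (-0.41), HSPB3 (-0.73), HSPBP1 (-0.47), DNAJB12 (-0.33), dnaja (-0.96) and DNAJB11 (-0.42, all log2 changes) were also called with swimming, which is one part of this average and is therefore no separate evidence. The other calls were HSF2, with -0.50 ± 0.13 (adjusted p = 0.0106), and the ER membrane gene dnajc18, with -0.39 ± 0.12 (adjusted p = 0.0353). Without 3y_control 1 the count was 17. No share over all genes is given for that fit, so this count does not tell whether the chaperones differed from all genes. Other settings also gave higher calls. Library totals, which moved the median of all genes to 0.13, called 13 members (21.8% of all genes tested), 9 lower and 4 higher: DNAJC1 (0.39), HSP90AB1 (0.46), HSPBAP1 (0.66) and HSPH1 (0.44). Without the 2 libraries of lowest TMM factor 12 were called (19.1% of all genes tested), with DNAJC1 (0.37), HSP90AB1 (0.47) and HSPBAP1 (0.63) higher. Without the 3 libraries high in epidermis markers 10 were called (13.8% of all genes tested), with HSPH1 (0.47) higher. DESeq2 called 16, 15 lower and HSPBAP1 (0.54) higher (24.5% of all genes with an adjusted p), and a filter at 1 CPM also called HSPBAP1 higher (0.57).

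The swim tunnel itself gave no called chaperone gene at either age. At 3 years 0 of 79 members were called (0.0705% of all genes tested), and none was called by DESeq2 (0.697% of all genes with an adjusted p). There 14 members had an unadjusted p under 0.05, all lower in 3y_swim (17.7%, beside 9.03% of all genes tested, of which 4.62% lower). The median log2 change was -0.16, beside -0.01 for all genes, and 59 of 79 members lay below 0 (51.1% of all genes tested did). Levels of HSPBP1, hsp90aa1.1 and DNAJC11 did not overlap between 3y_swim and 3y_control (3.8%, beside 1.67% of all genes tested). Their log2 changes were -0.54 ± 0.17, -1.17 ± 0.37 and -0.42 ± 0.13 (adjusted p = 0.309, 0.322 and 0.309). The 3 libraries high in epidermis markers include 3y_swim 1 and 3y_swim 3. Without these 3 the changes were -0.40 for HSPBP1, -0.70 for hsp90aa1.1 and -0.42 for DNAJC11. The part of the epidermis markers in the 3-year values was not tested.

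J-domain genes were among the other members with an unadjusted p under 0.05 at 3 years. DNAJA2 (ENSDARG00000010745), a cytosolic type A protein, averaged 12.9 ± 3.15 CPM in 3y_swim and 20.7 ± 5.66 CPM in 3y_control (log2 change -0.68 ± 0.21, adjusted p = 0.306). dnajb6b, whose human counterpart is tied to a muscular dystrophy of the limb girdle, had 35.5, 21.3, 26.7, 20.9 and 25.02 CPM in 3y_swim, against 41.5, 33.7, 50.6, 35.4 and 46.1 CPM in 3y_control. Only 3y_swim 1 reached the 3y_control range. The change of dnajb6b at 3 years was -0.68 ± 0.23 (adjusted p = 0.363), and averaged over both ages it was -0.55 ± 0.16 (adjusted p = 0.133). Without the 3 libraries high in epidermis markers the 3-year changes were -0.46 for this DNAJA2 gene and -0.88 for dnajb6b. Swimming averaged over ages gave 0 called members (0.628% of all genes tested), with 8 at an unadjusted p under 0.05 (14% of all genes tested) and 1, dnajb6b, called by DESeq2 (2.9% of all genes with an adjusted p).

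At 1 year 0 members were called between 1y_swim and 1y_control (1.14% of all genes tested), with 10 at an unadjusted p under 0.05 (19.2% of all genes tested) and 1, DNAJC2, called by DESeq2 (5.87% of all genes with an adjusted p). Summed skeletal muscle markers did not overlap here, at 211490 to 335599 CPM in 1y_swim and 150635 to 205921 CPM in 1y_control, nor did the exocrine pancreas markers; the part of either in the 1-year values was not tested. With TMM the balance here lay above 0, with a median log2 change of 0.13, beside -0.01 for all genes, and 25 of 79 below 0 (51.3% of all genes tested were). Its sign may depend on the scaling, since library totals moved the median of all genes by more than 0.13. The members' balance with library totals is not given. DNAJC2 averaged 6.43 ± 1.36 CPM in 1y_swim and 4.48 ± 0.387 CPM in 1y_control (0.52 ± 0.16, adjusted p = 0.0968). hspb6 averaged 921 ± 271 CPM in 1y_swim and 562 ± 121 CPM in 1y_control (0.71 ± 0.28, adjusted p = 0.18). HSF2 was lower in 1y_swim without overlap (-0.49 ± 0.18, adjusted p = 0.157), and dnajc5ga, outside the genes named by rule, was higher without overlap (2.53% of members, beside 4.02% of all genes tested). Under library totals, which moved the median of all genes to -0.40, 3 members were called (10.3% of all genes tested), all lower: HSF2, dnajb6a and dnajc5gb.

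**Figure D4:**
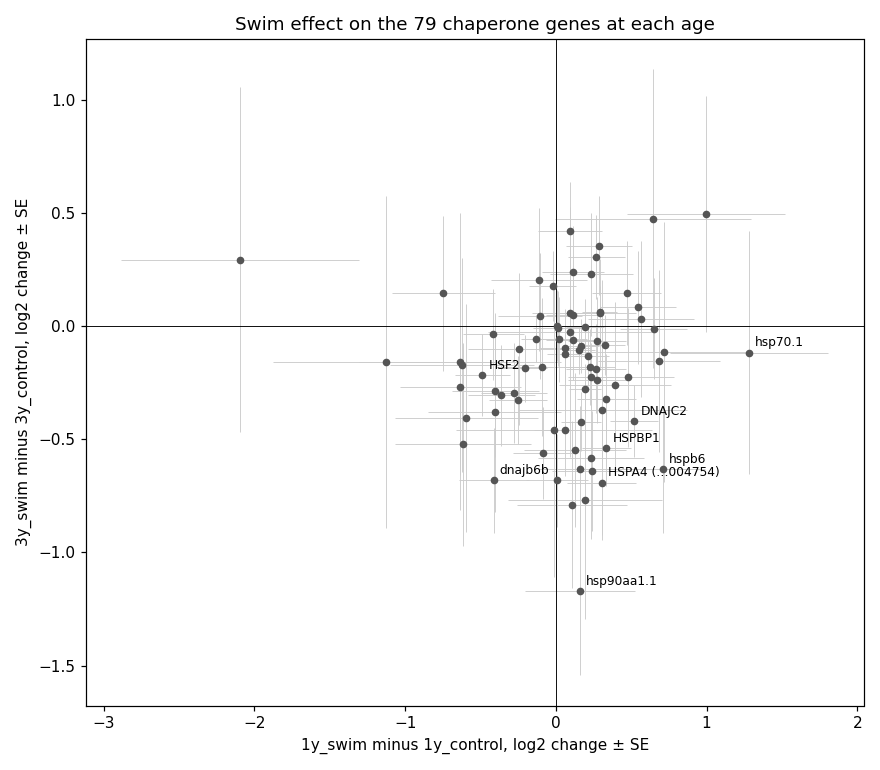
Log2 change with swimming ± SE of the 79 chaperone genes tested at 3 years (vertical axis) and 1 year (horizontal axis); each point is a gene, and no gene was called at either age. hspb6, DNAJC2, HSPBP1 and HSPA4 lie right of 0 and below 0, and hsp90aa1.1 lies lowest.

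Whether swimming acted differently at the 2 ages was tested by the interaction, the swim effect at 3 years minus that at 1 year. No member was called (0.335% of all genes tested), with 14 at an unadjusted p under 0.05, 13 of them lower (17.7% in both directions, beside 14.5% of all genes tested, of which 7.95% lower), and 3 called by DESeq2 (2.6% of all genes with an adjusted p): DNAJC2, HSPBP1 and hspb6. By edgeR their interactions were -0.94 ± 0.23 (adjusted p = 0.0796), -0.87 ± 0.23 (adjusted p = 0.103) and -1.34 ± 0.40 (adjusted p = 0.142). DNAJC2 was called when 1y_swim 1 was left out. The interaction of hsp90aa1.1 was -1.33 ± 0.52 (adjusted p = 0.242). The age difference was thus called in 14 members with swimming and in none at rest, but for no single member was the difference between the 2 states itself called by edgeR.

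The SERPINH1 copies, which escort procollagen through the ER, were not called in any comparison. SERPINH1 (ENSDARG00000019949) averaged 6.83 ± 1.57 CPM in 3y_swim, 8.90 ± 7.81 CPM in 3y_control, 7.42 ± 2.69 CPM in 1y_swim and 9.81 ± 6.10 CPM in 1y_control. The large spread at rest came from 3y_control 1, at 22.7 CPM, and 1y_control 1, at 20.3 CPM. The other copy, SERPINH1 (ENSDARG00000075954), averaged 5.25 ± 1.28 CPM in 3y_swim, 5.95 ± 3.63 CPM in 3y_control, 6.64 ± 2.10 CPM in 1y_swim and 7.06 ± 1.48 CPM in 1y_control.

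Partner genes outside the naming rule were counted by list. With age under swimming 17.7% of all genes tested were called, 10.1% lower and 7.59% higher. Of 31 genes tested on a list of cytosolic co-chaperones, 7 fell with age under swimming and none rose (median log2 change -0.35). The list also holds SMYD1, ppifa and CRYAB, itself a small heat shock protein, and none of these was among the 7. The 7 included UNC45B, the myosin chaperone that works with Hsp90, at 60.3 ± 23.5 CPM in 3y_swim and 137 ± 38.9 CPM in 1y_swim (-1.19 ± 0.27, adjusted p = 0.00536). Also lower were tomm34, which binds Hsp70 and Hsp90 (-0.99 ± 0.22, adjusted p = 0.00451), and the Hsp70 exchange factor BAG4 (-0.69 ± 0.16, adjusted p = 0.00599). The Hsp90 activator AHSA1 (ENSDARG00000100317, -0.64 ± 0.16, adjusted p = 0.00816) and bag6 (ENSDARG00000075892, -0.41 ± 0.10, adjusted p = 0.00879) fell as well. Of these 5, only tomm34 was still called without the 3 libraries high in epidermis markers. The second AHSA1 gene (ENSDARG00000028664), outside these 5, was also called lower, with a larger change (-2.18 ± 0.56, adjusted p = 0.0116). The other BAG6 gene (ENSDARG00000077531) was not called with age under swimming. BAG4 alone of the list was also called at rest (-0.80 ± 0.16, adjusted p = 0.0175), a call lost without 1y_control 1, 3y_control 2 or 3y_control 4. At rest 1.19% of all genes tested were called.

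Of 16 genes of the chaperonin TRiC and prefoldin, which fold actin and tubulin, 1 fell with age under swimming, PFDN2 (-0.49 ± 0.14, adjusted p = 0.0206; median of the list 0.01). Of 40 genes of ER folding and the unfolded protein response 3 fell and none rose (median -0.04): SDF2 (-0.93 ± 0.21, adjusted p = 0.00623), DERL1 (-0.45 ± 0.12, adjusted p = 0.0172) and SEL1L (-0.42 ± 0.12, adjusted p = 0.0208). DERL1 and SEL1L belong to the pathway that exports misfolded proteins from the ER. In both the TRiC and prefoldin list and the ER list, the share called lower was below the 10.1% of all genes tested. Without the 3 libraries high in epidermis markers SDF2 was still called, and PFDN2 (-0.31), DERL1 (-0.32) and SEL1L (-0.29) were not. Of the 10 mitochondrial chaperones tested, left out by the naming rule, 7 fell (median -0.88), among them HSPD1 (Hsp60) at 22.3 ± 1.93 CPM in 3y_swim and 48.9 ± 5.44 CPM in 1y_swim (-1.13 ± 0.13, adjusted p = 7.6e-05) and HSPA9 (mortalin) at 95.3 ± 11.1 CPM in 3y_swim and 233 ± 9.88 CPM in 1y_swim (-1.29 ± 0.13, adjusted p = 3.5e-05). In the swim comparison at 3 years 2 of these 10 fell, where 0.0705% of all genes tested were called. A called, lower interaction was found in 5 of the 10, where 0.335% of all genes tested were called. Between the swim groups at 1 year none of the 4 lists had a called gene (1.14% of all genes tested were called). With TMM their median log2 changes were 0.22 for the co-chaperone list, 0.32 for TRiC and prefoldin, 0.09 for the ER list and 0.37 for the mitochondrial list. Age averaged over exercise gave higher calls of CCT4 (0.44 ± 0.15, adjusted p = 0.0415) and CCT8 (0.31 ± 0.10, adjusted p = 0.0426). All other calls in the lists were lower there (20.2% of all genes tested were called). Swimming averaged over ages gave 1 call, ERO1A, higher (0.84 ± 0.19, adjusted p = 0.0462), beside 0.628% of all genes tested.

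Chaperone genes also differed in how far libraries of 1 group lay apart. The SD within groups, on the scale of log2(CPM + 0.1), had a median of 0.362 over the members tested and 0.411 over all genes tested. It was highest in the Hsp70 and Hsp110 genes (median 0.676) and lowest in those in or on the ER (0.293) and in the type C genes (0.299). The median of 0.676 is the SD of hsp70.1, which had a median level of only 0.279 CPM. The Hsp70 genes hsp70.3 and hsp70l were also low, at medians of 0.721 and 0.794 CPM. The part of low counts in these spreads was not tested. HSPA8 (ENSDARG00000037403) had the highest SD, 1.33, with levels between 1.29 and 28.5 CPM; reads shared with the other HSPA8 copy could affect it. The inducible hspa1b, named after its values were seen, had an SD of 1.12.

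**Figure D5:**
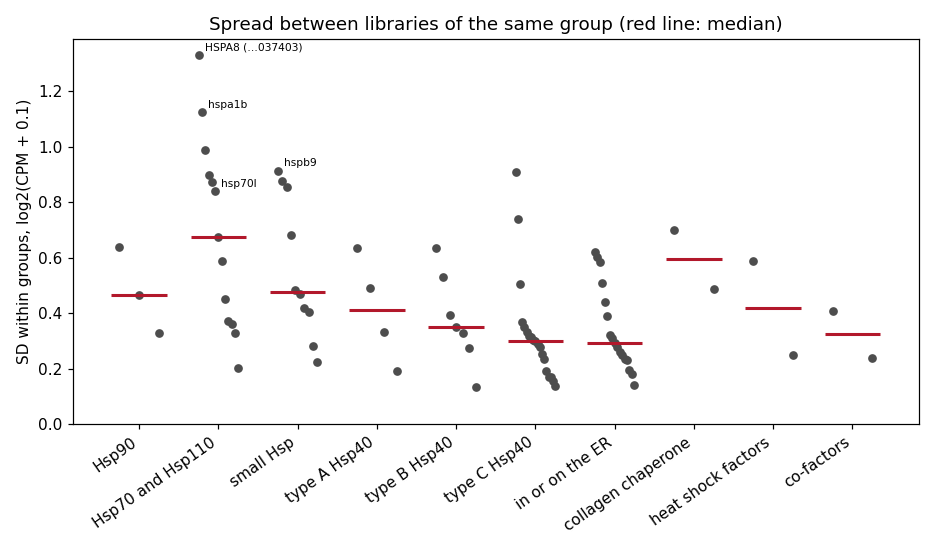
SD of log2(CPM + 0.1) between libraries of the same group for each of the 79 chaperone genes tested, by role, with the median of each role as a red line. The Hsp70 and Hsp110 genes spread up to 1.33, and their median of 0.676, that of the low gene hsp70.1, is the highest of the 10 roles.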

How the data were processed

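Muscle RNA of 20 libraries (5 per group) was prepared with TruSeq RNA v2 per the labels' protocols. Per the submitters' processing notes bcl2fastq 1.8.4, STAR 2.4.1d and featureCounts 1.4.6-p4 were used with build GRCz10; their settings and the use of strand are not given in the sources used here. The deposited counts per gene are raw. A second deposited table, called RPKM, was treated as a score: over 406 genes with at least 50 counts its values gave fixed gene lengths only when library totals were applied in turn down the table (coefficient of variation 1.17e-06, against 0.133 with each library's own total). It was used only for gene lengths, fixed within 1 base for 75 of 86 members.

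Counts were fitted with edgeR 4.0.16 in R 4.3.3 (filterByExpr, TMM, robust quasi-likelihood, 1 mean per group, all 20 libraries), and 7 comparisons were tested over 17025 genes with Benjamini-Hochberg adjustment. The fit was tested on simulated data. DESeq2 1.42.0, other scalings and filters, fewer libraries and leaving out each library were alternatives; leaving out the libraries high in epidermis markers or lowest in TMM factor was added after seeing the data. Named members are those called, the 10 highest per length, the smallest p per role and comparison, and fixed key chaperones. Called partner genes were limited to 5 per list, apart from the second AHSA1 gene. Members and lists were chosen with earlier results of these data known; 183 of 207 listed names matched. Replicates are numbered in accession order.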

Additional observations from a re-analysis of the deposited data

Results flagged for a closer look

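In 4 of 116 groups of 5 libraries 1 library lay far from the other 4 (Dixon's test at its 95% critical value, 0.71). Chance flags about 1 group in 20, a larger share than was flagged here. hspb6 had 373 CPM in 3y_swim 5, against 179 to 199 CPM in the other 3y_swim libraries, and this highest value still lay below every 1y_swim library. HSPB3 had 10.8 CPM in 3y_swim 1, against 16.1 to 18.03 CPM in the other 4. HSPB1 had 204 CPM in 1y_control 2, against 448 to 523 CPM in the other 4. HSP90AB1 had 399 CPM in 1y_control 5, a library high in epidermis markers, against 226 to 274 CPM in the other 4.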

How the results depend on the processing

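No paired analysis was possible because the labels give no replicate numbers. With swimming, the 14 members called with age became 9 without a filter on low counts, 6 without the 3 libraries high in epidermis markers, 8 without the 2 libraries of lowest TMM factor, and 10 to 17 when 1 library was left out; DESeq2 gave 17, library totals 10 and the 10 libraries compared alone 11. hspb6, DNAJC11 and HSPBP1 were called there under every alternative run. With age averaged over exercise the count of 11 became 9 to 17 when 1 library was left out, 16 with DESeq2 (11 shared), 13 with library totals (9 shared), 12 without the lowest TMM factors (9 shared), 10 without the libraries high in epidermis markers (8 shared), 12 with a filter at 1 CPM (11 shared) and 9 with no filter (9 shared). At rest, DESeq2 called 2 and leaving out 1 library gave 0 to 1. For swimming at 1 year library totals gave 3, DESeq2 1 and leaving out 1 library 0 to 1; averaged over ages library totals gave 5 and DESeq2 1; at 3 years no alternative called any. For the interaction DESeq2 called 3 and leaving out 1 library gave 0 to 1. Only 77 changes of single genes, chosen among those called or reported, were followed through the settings. Among these the swim effect at 1 year on DNAJA2 (ENSDARG00000104066) turned to -0.083 with library totals, the one reversal. Whether the changes of other members kept their sign is not given. For settings whose share over all genes is given nowhere above, the counts do not tell whether the chaperones differed from all genes. The causes were not tested.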
